A study of Saccharomyces cerevisiae with 6 samples.

Results

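Messenger RNA levels of 8 genes of glycine cleavage and folate-bound one-carbon metabolism were followed in budding yeast, Saccharomyces cerevisiae, across wild type (WT) and the Tra1 mutants M1 and M8. The genes were GCV1, GCV2, GCV3, MTD1, SHM1, SHM2, MIS1 and ADE3. They were matched by symbol in the array's gene table, all 8 were found with 1 probe set each, and they are 8 of 5656 genes measured. The set was chosen by the log2 levels of GCV1 and MTD1, which differ between M1 and M8 in these data. The difference between the mutants is therefore described here and not tested.

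Each of the 3 groups held 2 one-colour arrays, and every culture was grown in rich YPD medium with no treatment. Tra1 is the protein through which activators such as Gal4 contact the histone acetyltransferase complexes SAGA and NuA4, and the labels call M1 and M8 Gal4 interaction defective. The amino acid changes, the strain background and the fate of the normal TRA1 copy are not stated in the labels. Since the arrays of a group are described only as duplicates and no separate cultures are named, p-values measure no more than the spread between samples, and that spread may be technical.

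The glycine cleavage system is a mitochondrial enzyme complex that splits glycine into carbon dioxide, ammonia and a methylene group held on tetrahydrofolate. Serine hydroxymethyltransferases make the same folate from serine, in mitochondria and in the cytosol, and further enzymes change its oxidation state so that it can feed purine, thymidylate and methionine synthesis. In yeast the GCV genes are known to be induced by glycine and to respond to the cytosolic folate pool. Bas1, an activator of purine and histidine synthesis, and Gcn4, the activator of the general amino acid response, are known regulators of several of these genes.

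Levels are log2 values scaled between arrays by the authors, so a difference of 1 is a 2-fold change, and each value below is such a level or a difference of levels. M1 replicate 2 stood apart from the rest. Its SD from the mean of the other 5 arrays over all genes was 0.303, against 0.139 to 0.194 for the others, and the M1 duplicates differed with an SD of 0.349, against 0.198 in WT and 0.142 in M8. The median signal of 92 tRNA probe sets, set against the remaining arrays, was 0.57 in M1 replicate 2 and -0.50 in its duplicate. The part of these differences in the results was not tested, and values without M1 replicate 2 are given beside several of them.

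The genes of the glycine cleavage subunits, GCV1, GCV2 and GCV3, had lower values on both M1 arrays than on both WT arrays, by 0.17 to 0.59 in the mean, and M8 means within 0.037 of WT. No difference passed the test over all genes. GCV1 (YDR019C) encodes the T subunit, which passes the methylene group to tetrahydrofolate. Its log2 level was 9.08 and 9.50 on the WT arrays, 8.80 and 8.60 on the M1 arrays, and 9.26 and 9.31 on the M8 arrays. Both M1 arrays lay below all other arrays, and the M8 arrays lay between the WT arrays. GCV1 was thus 0.59 (SE 0.16) below WT in M1, a 1.51-fold lower level, and differed from WT by -0.0046 (SE 0.16) in M8. The M1 difference was -0.49 without M1 replicate 2, -0.38 without WT replicate 2 and -0.80 without WT replicate 1, because the WT arrays were themselves 0.43 apart.

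GCV2 (YMR189W) encodes the P subunit, the glycine decarboxylase proper. Its level was 10.18 and 9.94 in WT, 9.89 and 9.51 in M1, and 10.11 and 9.93 in M8. The M1 arrays were again the lowest, but M1 replicate 1 came within the distance between duplicates of the lower WT and M8 arrays. The M1 difference of -0.35 (SE 0.16, limma adjusted p = 0.612 after Benjamini-Hochberg correction) did not pass the threshold of 0.05, and it was -0.16 without M1 replicate 2 and -0.54 without M1 replicate 1. In M8 the difference was -0.037 (SE 0.16, limma adjusted p = 0.980).

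GCV3 (YAL044C) encodes the H subunit, whose lipoyl arm carries the intermediate between the other subunits. It had nearly the same order of arrays as GCV1 on a smaller scale, with 11.61 and 11.70 in WT, 11.52 and 11.45 in M1, and 11.67 and 11.66 in M8. Its differences from WT were -0.17 (SE 0.11, limma adjusted p = 0.675) in M1 and 0.015 (SE 0.11, limma adjusted p = 0.989) in M8, and the second turned to -0.0051 when each array was centred on its median.

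MTD1 (YKR080W), the cytosolic NAD-dependent methylenetetrahydrofolate dehydrogenase gene, separated all 3 groups. Its level was 9.20 and 9.27 in WT, 8.97 and 8.78 in M1, and 9.36 and 9.39 in M8. Both M1 arrays lay below WT and both M8 arrays above it, with no overlap on either side. MTD1 was 0.36 (SE 0.12) below WT in M1, a 1.29-fold lower level, and 0.14 (SE 0.12) above it in M8. The M1 difference was -0.27 without M1 replicate 2. An order of this kind, M1 below WT below M8 on every array, was found for 0.919% of all genes, or 52 of them. The reverse order, M8 below WT below M1, was found for 1.49%, or 84 genes. MTD1 was picked by its difference between the mutants, so nothing further is read from these shares.

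**Figure D1:**
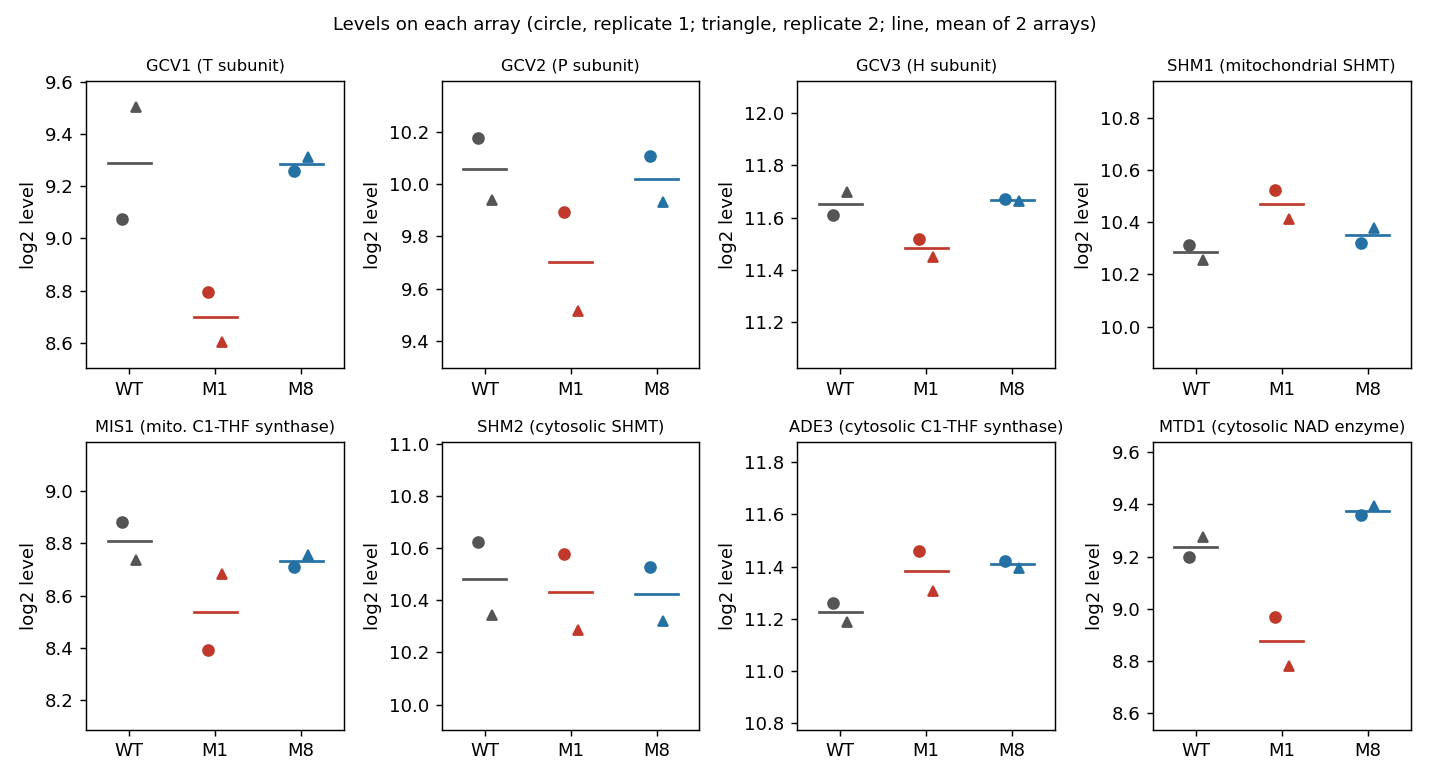
Log2 level (y axis, spanning 1.1 units in every panel) of the 8 genes on each of the 6 arrays, by group (x axis), with circles for replicate 1, triangles for replicate 2 and a line at the mean of the 2 arrays. GCV1, GCV2, GCV3, MTD1 and MIS1 have both M1 arrays below both WT arrays, and SHM2 has overlapping groups.

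The serine hydroxymethyltransferase genes had means within 0.18 of WT in both mutants. SHM1 (YBR263W), the mitochondrial enzyme, had 10.31 and 10.26 in WT, 10.52 and 10.41 in M1, and 10.32 and 10.38 in M8. The groups did not overlap, in the order WT, M8, M1, but WT and M8 were separated by less than either pair of duplicates. SHM1 differed from WT by 0.18 (SE 0.11, limma adjusted p = 0.665) in M1 and by 0.064 (SE 0.11, limma adjusted p = 0.934) in M8. SHM2 (YLR058C), the cytosolic enzyme, had 10.62 and 10.34 in WT, 10.58 and 10.29 in M1, and 10.53 and 10.32 in M8. All 3 groups overlapped. Its differences of -0.051 and -0.058 (SE 0.16 each, limma adjusted p = 0.938 and 0.963) turned sign when single arrays were left out, and the 95% interval of the M8 difference ran from -0.42 to 0.30.

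The tetrahydrofolate synthase genes MIS1 and ADE3 encode trifunctional enzymes that interconvert formate, formyl-, methenyl- and methylenetetrahydrofolate, MIS1 in mitochondria and ADE3 in the cytosol. MIS1 (YBR084W) had 8.88 and 8.74 in WT, 8.39 and 8.68 in M1, and 8.71 and 8.76 in M8. M1 replicate 1 was the lowest array and M1 replicate 2 came close to WT, unlike GCV1, GCV2, GCV3 and MTD1, for which replicate 2 was the lower. MIS1 differed from WT by -0.27 (SE 0.13, limma adjusted p = 0.631) in M1 and -0.075 (SE 0.13, limma adjusted p = 0.938) in M8, and the M1 difference was -0.13 without M1 replicate 1 and -0.42 without M1 replicate 2.

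ADE3 (YGR204W) had 11.26 and 11.19 in WT, 11.46 and 11.31 in M1, and 11.42 and 11.39 in M8. All 4 mutant arrays lay above both WT arrays, and M1 and M8 overlapped. Its differences of 0.16 in M1 and 0.18 in M8 (SE 0.11 each) had limma adjusted p = 0.693 and 0.822.

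In M1, 0 of the 8 genes were called by limma over all genes, as was true of 0% of the 5656 genes, and 2 were lower at an unadjusted p under 0.05 (GCV1 and MTD1), against 3.47% of all genes. The M1 arrays lay below both WT arrays for 5 of the 8 (GCV1, GCV2, GCV3, MTD1 and MIS1), where 13.5% of all genes did so, and above them for 2 (SHM1 and ADE3), where 22% did so. The choice of the set used the M1 arrays, so nothing further is read from these counts. The median difference of the 8 was -0.22, and that of all genes 0.012.

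In M8, limma again called 0 of the 8 and 0% of all genes, and 0 of the 8 had an unadjusted p under 0.05, where 4.74% of all genes were higher and 2.32% lower. The M8 arrays lay above both WT arrays for MTD1, SHM1 and ADE3, 3 of 8, where 29% of all genes did so, and below them for 0 of 8, where 19.1% did so. The choice of the set used the M8 arrays as well, so nothing further is read from these counts either. The median of the 8 was 0.0051 and that of all genes 0.029. The differences lay between -0.075 (MIS1) and 0.18 (ADE3), and their 95% intervals, narrowest for GCV3 (-0.24 to 0.27), reached as low as -0.42 for SHM2 and as high as 0.45 for ADE3.

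Between the mutants, GCV1 was higher in M8 than in M1 by 0.59 and MTD1 by 0.50, the values by which the set was picked. Ordered from the highest value down, these stood at ranks 50 and 106 of 5656 genes. GCV2 differed by 0.32, MIS1 by 0.20 and GCV3 by 0.18 in the same direction, and SHM1 by -0.12, while ADE3 (0.024) and SHM2 (-0.0073) had means that differed less. The M8 and M1 arrays did not overlap for 6 of the 8, with 5 higher and 1 lower in M8, where 19.5% of all genes were higher and 18.4% lower. The 5 include GCV1 and MTD1, which were picked by this difference, so nothing further is read from this count. Without M1 replicate 2 the difference was 0.49 for GCV1, 0.41 for MTD1, 0.13 for GCV2, 0.34 for MIS1, -0.053 for ADE3 and -0.15 for SHM2. Without M1 replicate 1 it was 0.10 for ADE3 and 0.14 for SHM2, so the sign of both depended on the M1 array kept.

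**Figure D2:**
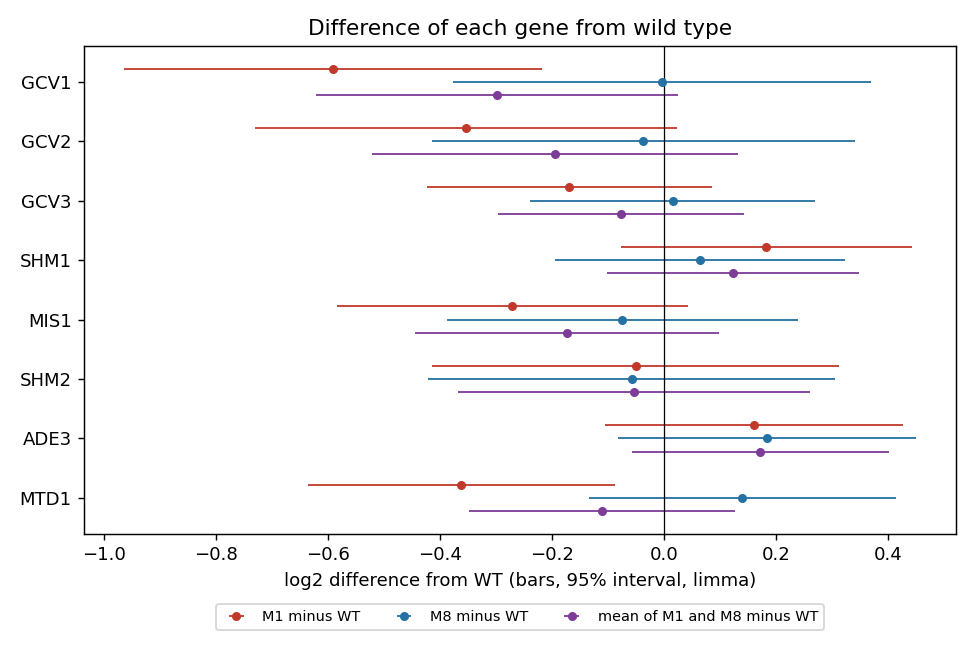
Log2 difference from WT (x axis) for each of the 8 genes (y axis) in M1, in M8 and for the mean of both mutants, with points for the limma estimate and bars for its 95% interval. The M1 intervals of GCV1 (-0.96 to -0.22) and MTD1 (-0.64 to -0.089) lie below 0, but both genes were picked with the M1 arrays and these intervals are a description.

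In the mean of both mutants against WT, M1 and M8 enter with equal weight. It is independent of the difference between M1 and M8 only if both mutants have equal spread. Their duplicates differed with an SD of 0.349 in M1 and 0.142 in M8, so the choice of the set can still bear on this comparison. It was tested for all 8 genes. None of the 8 was called by limma after Benjamini-Hochberg correction, against 0.0707% of all genes, and 0 had an unadjusted p under 0.05, where 5.25% of all genes were higher and 2.74% lower. GCV1 had the largest difference, -0.30 (SE 0.14, limma adjusted p = 0.654), with a 95% interval of -0.62 to 0.025. GCV2 followed with -0.20 (SE 0.14, limma adjusted p = 0.768). MIS1 differed by -0.17 (SE 0.12, limma adjusted p = 0.752) and ADE3 by 0.17 (SE 0.099, limma adjusted p = 0.704). SHM1 had 0.12, MTD1 -0.11, GCV3 -0.077 and SHM2 -0.054, with limma adjusted p between 0.796 and 0.961. All 4 mutant arrays lay above both WT arrays for SHM1 and ADE3, 2 of 8, where 11.9% of all genes did so, and below them for 0 of 8, where 6.86% did so.

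Both enzyme activities that exist in cytosol and mitochondria could be compared within each array, where any scaling of the whole array cancels. The step between 2 probe sets has no meaning as a level, so only its change between groups is read. ADE3 minus MIS1 was 2.38 and 2.45 in WT, 3.07 and 2.62 in M1, and 2.71 and 2.64 in M8. All 4 mutant arrays lay above both WT arrays, and the M1 arrays spanned the M8 arrays. The mean of the mutants exceeded WT by 0.34, with an exact permutation p = 0.133 (two-sided, 0.266 adjusted over the 2 differences compared), the smallest that 4 arrays against 2 can give. SHM2 minus SHM1 was 0.31 and 0.088 in WT, 0.052 and -0.12 in M1, and 0.21 and -0.057 in M8. Its groups of mutants and WT overlapped, with a change of -0.18 and an exact permutation p = 0.267 (two-sided, 0.267 adjusted). That change was -0.068 without WT replicate 1 and -0.29 without WT replicate 2. The comparison was chosen after the levels had been seen. The adjustment over 2 differences does not cover that choice, and the permutation takes the M1 and M8 arrays as a single group. These p-values are therefore a description.

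**Figure D3:**
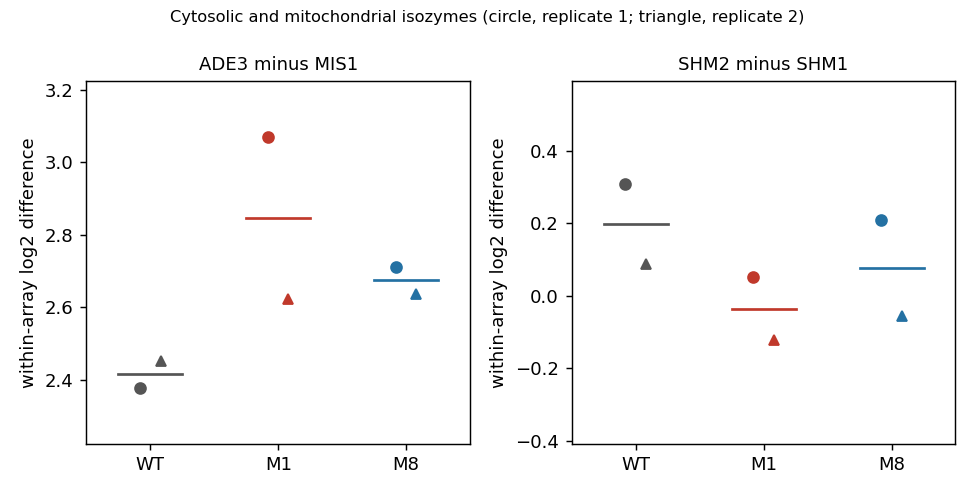
Cytosolic minus mitochondrial enzyme gene, as the log2 difference within each array (y axis), by group (x axis), with circles for replicate 1, triangles for replicate 2 and a line at the mean. ADE3 minus MIS1 lies between 2.62 and 3.07 in the mutants and at 2.38 and 2.45 in WT.

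Other genes of the pathway were taken from lists by role, and 40 of 41 were measured. None of the 40 was called by limma in M1, M8 or the mean of the mutants. At an unadjusted p under 0.05, 2 were higher and 3 lower in M1, where 5.11% of all genes were higher and 3.47% lower, and 2 were higher and 1 lower in M8, where 4.74% and 2.32% were. For the mean of the mutants 3 were higher and 2 lower, where 5.25% and 2.74% of all genes were. The median of the 40 was 0.0042 in M1, 0.033 in M8 and 0.0061 for the mean of the mutants.

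The complex shares its L subunit, the lipoamide dehydrogenase LPD1, with pyruvate dehydrogenase and related complexes. Its level was 10.63 and 10.65 in WT, 10.76 and 11.03 in M1, and 10.84 and 10.74 in M8. All 4 mutant arrays lay above both WT arrays, as they did for 11.9% of all genes. The differences were 0.25 (SE 0.13, limma adjusted p = 0.636) in M1 and 0.15 (SE 0.13, limma adjusted p = 0.874) in M8. The M1 difference of LPD1 was 0.12 without M1 replicate 2 and 0.39 without M1 replicate 1. AIM22, a lipoate-protein ligase gene also called LIP3, had 5.60 and 5.46 in WT, 5.75 and 5.76 in M1, and 5.82 and 5.77 in M8. For the mean of the mutants it differed by 0.24 (SE 0.097, limma adjusted p = 0.597), and it was 1 of 4 genes in this list with an unadjusted p under 0.05, where 5.25% of all genes were higher and 2.74% lower by that measure. Of the rest of the list, LIP2 differed by 0.22 in M1 and 0.21 in M8. LIP5 went the other way, with -0.28 (SE 0.17, limma adjusted p = 0.659) in M1 and -0.17 (SE 0.17, limma adjusted p = 0.889) in M8.

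Among the 6 genes that supply serine and glycine, SER1, the phosphoserine aminotransferase gene, was the member with an unadjusted p under 0.05 in a comparison with WT. Its level was 8.17 and 8.26 in WT, 8.61 and 8.49 in M1, and 8.42 and 8.53 in M8. All 4 mutant arrays lay above both WT arrays, as they did for 11.9% of all genes. The mean of the mutants differed by 0.30 (SE 0.10, limma adjusted p = 0.510). In that comparison 5.25% of all genes were higher with an unadjusted p under 0.05. Of 9 genes of folate synthesis and storage, FAU1, which encodes the enzyme that returns 5-formyltetrahydrofolate to the active pool, was the 1 with such a p. It had 7.69 and 7.84 in WT, 7.54 and 7.57 in M1, and 7.33 and 7.57 in M8, and the mean of the mutants differed by -0.26 (SE 0.11, limma adjusted p = 0.604), where 2.74% of all genes were lower at an unadjusted p under 0.05.

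The users of one-carbon folates had a median of -0.22 over 8 genes in M1 and 0.069 in M8. In M1, 3 of the 8 were lower at an unadjusted p under 0.05, where 3.47% of all genes were, and 0 were called by limma after correction. MET6, the methionine synthase gene that takes the methyl group of methyltetrahydrofolate, had 9.16 and 9.32 in WT, 8.95 and 8.13 in M1, and 8.89 and 9.08 in M8. M1 replicate 2 was far below the other arrays, and the M1 difference of -0.70 (SE 0.24, limma adjusted p = 0.529) was -0.29 without it. FMT1, the mitochondrial methionyl-tRNA formyltransferase gene, had low values throughout, 4.50 and 4.45 in WT, 4.09 and 4.17 in M1, and 4.20 and 4.33 in M8. It lay below WT on all 4 mutant arrays, as 6.86% of all genes did. The FMT1 differences were -0.35 (SE 0.11, limma adjusted p = 0.502) in M1 and -0.21 (SE 0.11, limma adjusted p = 0.771) in M8. ADE8, a purine synthesis gene whose enzyme uses formyltetrahydrofolate, had 9.45 and 9.71 in WT, 9.32 and 9.19 in M1, and 9.45 and 9.58 in M8. Its M1 difference was -0.32 (SE 0.13, limma adjusted p = 0.557). ADE16 and MET12 went the other way in M1, by 0.27 (SE 0.14, limma adjusted p = 0.641) and 0.095 (SE 0.11, limma adjusted p = 0.804). The M1 arrays lay above both WT arrays for these 2 of the 8, where 22% of all genes did so. They lay below both WT arrays for 4 of the 8, where 13.5% of all genes did so.

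BAS1 itself had higher values in both mutants than in WT, and any link to the levels of the 8 genes was not tested. The BAS1 level was 7.68 and 7.32 in WT, 8.03 and 7.99 in M1, and 8.01 and 7.88 in M8. All 4 mutant arrays lay above both WT arrays, as they did for 11.9% of all genes. The differences were 0.51 (SE 0.14) in M1 and 0.44 (SE 0.14) in M8, or 1.42-fold and 1.36-fold, with limma adjusted p = 0.441 and 0.638, and the mean of the mutants differed by 0.48 (SE 0.13, limma adjusted p = 0.344). None of these passed the threshold. Without WT replicate 2, the lower WT array, the mean of the mutants differed by 0.30, and without WT replicate 1 by 0.66. The 9 other measured purine and histidine genes under Bas1 and Pho2 had medians of -0.0029 in M1 and -0.011 in M8, and 0 of them had an unadjusted p under 0.05 in any comparison with WT. HIS4, of histidine synthesis, showed the largest difference among them for the mean of the mutants, 0.24 (SE 0.11, limma adjusted p = 0.654). The partner gene PHO2 differed by 0.030 in M1 and 0.15 in M8, and GCN4 by 0.17 and 0.034. FDH1, a formate dehydrogenase gene with a close copy that its probe set can also read, was dim at 3.82 in WT and differed by 0.12 in M1 and 0.18 in M8. Its other 2 probe sets had -0.19 and 0.029 in M8, and the mean of its 3 probe sets differed by 0.070 in M1 and 0.0061 in M8.

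**Figure D4:**
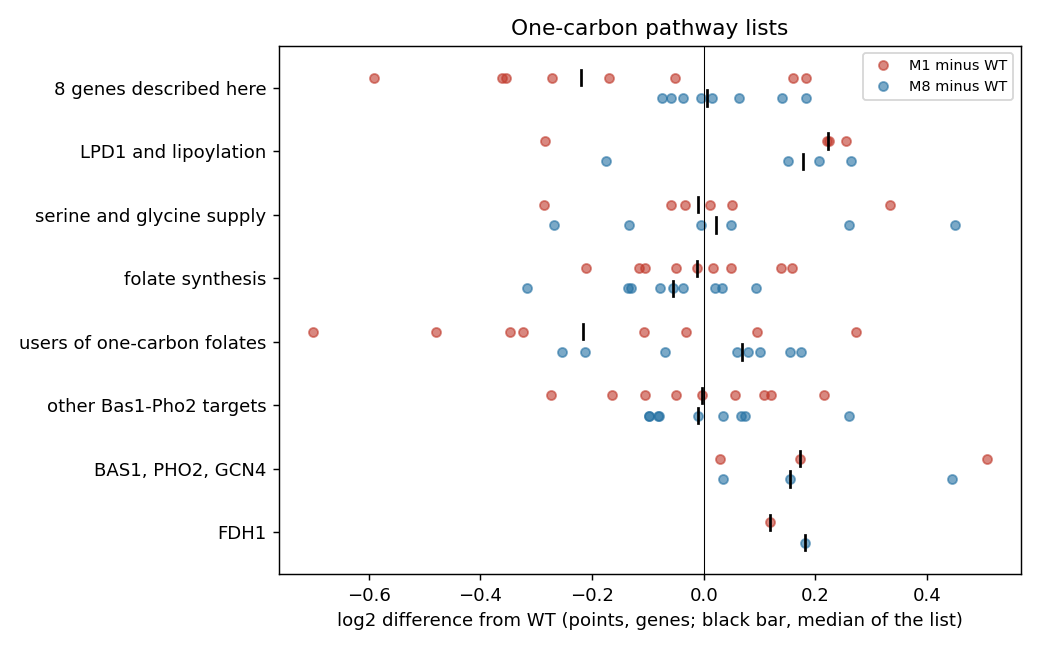
Log2 difference from WT (x axis) of the 8 genes and of 40 further pathway genes in 7 lists (y axis), with points for genes in M1 and M8 and a black bar at the median of each list. In M1 the medians of the 8 genes and of the users of one-carbon folates both lie at -0.22, and BAS1 stands at 0.51 in M1 and 0.44 in M8.

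Across the 6 arrays GCV1, GCV3 and MTD1 varied together, with Pearson's r of 0.986 for GCV1 and GCV3, 0.962 for GCV3 and MTD1 and 0.917 for GCV1 and MTD1. These are descriptions over 6 arrays that share the M1 to M8 difference used in the choice. GCV2 correlated with MTD1 at 0.761, with GCV3 at 0.721, with SHM2 at 0.703 and with GCV1 at 0.623. GCV2, SHM2 and ADE3 were each lower in replicate 2 than in replicate 1 in all 3 groups, though GCV2 and ADE3 correlated at 0.023. SHM1 ran against GCV1 (-0.742) and MIS1 (-0.820). ADE3 had -0.313 with GCV1 and -0.624 with MIS1.

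Profiles most like that of GCV1 were sought among 1712 other genes whose highest and lowest arrays differed by at least 0.5. They belonged to AIM19, a mitochondrial protein gene (r = 0.987 over 6 arrays), AYR1, a lipid reductase gene (0.977), RIB3, of riboflavin synthesis (0.976), FLO11, a cell surface flocculin gene (0.970), and FUS3, the mating MAP kinase gene (0.970). AIM19 came closest in size too, with -0.60 in M1 and -0.035 in M8. MTD1 stood at rank 40 of this order, and GCV3 was left out by its range of 0.25.

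The profiles most like that of MTD1 were those of PLN1, a lipid droplet protein gene (r = 0.978), LSM1, of cytoplasmic message decay (0.978), RPS14B, a ribosomal protein gene with a close copy (0.975), YDR476C (0.957) and GET2, of tail-anchored protein insertion (0.953). Among them YDR476C had the largest M1 difference, -0.39, and PLN1 the largest M8 difference, 0.18. With 6 arrays and this many candidates, a high r marks a similar profile over these arrays and no more.

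**Figure D5:**
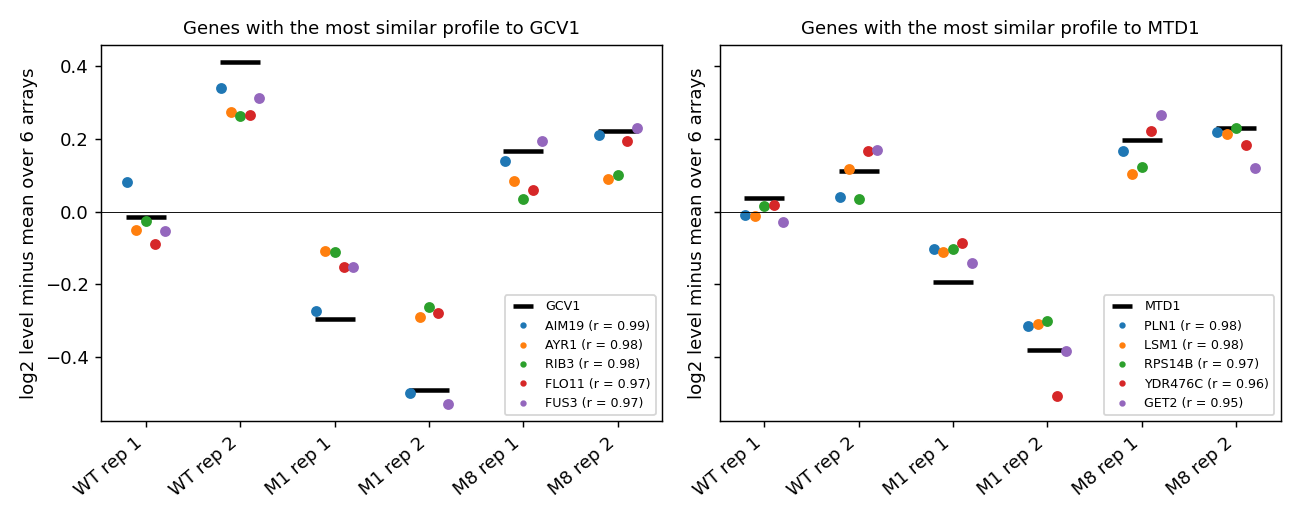
Log2 level minus its mean over the 6 arrays (y axis) on each array (x axis), with a black bar for GCV1 (left) or MTD1 (right) and coloured points for the 5 genes with the most similar profile. In both panels the M1 arrays lie below 0, with M1 replicate 2 lower than M1 replicate 1.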

How the data were processed

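Whole-cell total RNA was biotin-labelled with a 3'IVT kit, per the labels' protocols. The deposited values are log2 levels per probe set, and RMA and oligo are named in the submitters' processing notes with versions and settings not given in the sources used here. Medians of the 6 arrays were 6.48 to 6.52, which shows that the authors had scaled them, and such values cannot show a shift common to all messages. Of 9275 probe sets, 6504 had 1 gene, 328 several and 2443 none. The 6504 were matched by gene identifier to the R64 gene table, and the probe set with the highest mean was kept for each of 5656 genes.

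With limma 3.58.1 (R 4.3.3), group means were fitted over the 6 arrays (3 residual degrees of freedom, eBayes, two-sided). P-values were adjusted by Benjamini-Hochberg over 5656 genes, with a threshold of 0.05. The calculation was run on simulated arrays with independent noise, as a check of the code. An outlying array such as M1 replicate 2 was not simulated. Nothing is read from the simulation about differences as small as those given here. The number of arrays limits the precision. Pathway genes were named where an unadjusted p was under 0.05 in a comparison with WT, or otherwise by the largest difference in their list. LPD1, LIP2, LIP5, ADE16, MET12, PHO2, GCN4, GLY1 and MET13 were named after their values were seen. The 8 genes and all lists were chosen with earlier results of these data known.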

Additional observations from a re-analysis of the deposited data

Results flagged for a closer look

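MTD1 moved below WT on both M1 arrays and above WT on both M8 arrays, with M8 higher than M1 by 0.50. The same opposite movement was seen in 3 of the genes whose profiles resemble that of MTD1: PLN1 (0.40), RPS14B (0.38) and YDR476C (0.50). They were selected for a high r with MTD1, which makes this pattern likely. LSM1 and GET2, selected in the same way, had M8 arrays that overlapped WT. The difference between the mutants was not tested for MTD1 or for these genes, since it was used to pick MTD1.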

How the results depend on the processing

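No gene of the 8 was called against WT under any alternative run. The median of the 8 in M1 lay between -0.26 and -0.15 when single arrays were left out, and between -0.24 and -0.20 otherwise. GCV1 stayed below WT in M1 in every alternative (-0.80 to -0.38) and so did MTD1 (-0.46 to -0.27). Leaving out WT replicate 2 brought the mean of the mutants to -0.084 for GCV1, and WT replicate 1 to -0.51. ADE3 minus MIS1, an added comparison, stayed above WT (0.23 to 0.46 with single arrays left out).

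Directions against WT turned for the following values. Left-out arrays gave ranges of -0.20 to 0.094 (M1), -0.20 to 0.080 (M8) and -0.19 to 0.084 (mean of the mutants) for SHM2. In M8 they gave -0.22 to 0.21 for GCV1, -0.16 to 0.082 for GCV2, -0.029 to 0.059 for GCV3, -0.20 to 0.062 for ADE8 and -0.019 to 0.22 for MET13. GLY1 ranged from -0.75 to 0.17 in M1 and from -0.15 to 0.31 for the mean of the mutants. Median centring turned GCV3 in M8 to -0.0051 and the M8 median of the 8 to -0.015, and quantile normalization also turned that median below 0. For M8 minus M1, left-out arrays gave -0.053 to 0.10 for ADE3 and -0.15 to 0.14 for SHM2. Without M1 replicate 1, MET6 (-1.11), MET13 (-0.82) and GLY1 (-0.75) were called in M1 and MET6 (-0.68) for the mean of the mutants, with M1 replicate 2 standing alone.

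Counts over all genes moved more. In M1, 0 genes were called with all arrays, 382 without M1 replicate 1, 62 without M1 replicate 2, and at most 3 under the other settings. In M8, 0 became 23 with only WT and M8 in the fit or without either M1 replicate, and 56 with array weights. For the mean of the mutants 4 became 51 and 132 without M1 replicates 1 and 2, 16 with array weights, and 0 with all probe sets, quantile normalization, the ordinary linear model, the replicate block or a WT or M8 array left out. The replicate block changed no call among the 8 genes. Whether replicate numbers pair the samples cannot be told from these values. Deviations of same-numbered arrays correlated at -0.31 (WT and M1), 0.30 (WT and M8) and -0.11 (M1 and M8) across genes. The correlations with M1 include its outlying replicate 2. The cause of the shifts in the counts was not tested.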

Other observations

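In GLY1, MET13 and MET6 the difference between the mutants was larger with M1 replicate 2 than without it. The same held for GCV1, GCV2, GCV3 and MTD1. GLY1, the threonine aldolase gene that makes glycine from threonine, had 8.39 and 8.76 in WT, 8.75 and 7.83 in M1, and 8.90 and 9.15 in M8. MET13, the methylenetetrahydrofolate reductase gene, had 6.05 and 6.29 in WT, 6.03 and 5.35 in M1, and 6.15 and 6.39 in M8. Without M1 replicate 2 the difference between M8 and M1 was 0.28 for GLY1 and 0.24 for MET13, against 0.74 and 0.58 with all arrays. For MET6 it was 0.034 against 0.45, for GCV1 0.49 against 0.59 and for MTD1 0.41 against 0.50. Both M1 arrays lay below all WT and M8 arrays for GCV1, GCV2, GCV3, MTD1 and MIS1. The same held in the pathway lists for MET13, FMT1, ADE8 and ADE1. The share of all genes with this order was not counted, so nothing is read from it. For MET13, M1 replicate 1 at 6.03 was close to WT replicate 1 at 6.05.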
